A study of Homo sapiens with 2 samples.

Results

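Ferritin, heme oxygenase and metallothionein genes were compared between A549 cells that transforming growth factor beta (TGF-beta) had, per the labels, taken through an epithelial to mesenchymal transition (EMT) and A549 cells left without treatment. A549 is an established epithelial cell line grown from a human lung adenocarcinoma. Per the labels the cells are of wild type genotype and carry a red fluorescent reporter of vimentin, in both groups, and neither the dose and time of TGF-beta nor whether the reporter line is 1 clone is given in the sources used. Each group was 1 AmpliSeq Transcriptome library made from 10 ng of total RNA, a method in which multiplex PCR copies a short stretch of every gene it targets. The 7 genes were chosen by symbol from 57736 gene entries of the deposited table. They are FTH1 and FTL (ferritin heavy and light chains), HMOX1 (heme oxygenase 1) and the metallothioneins MT2A, MT1X, MT1E and MT1F.

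Ferritin is a hollow protein shell in which cells store iron, with a heavy chain that oxidises the metal and a light chain that helps it to mineralise. Heme oxygenase 1 opens the heme ring and releases iron, carbon monoxide and biliverdin. Metallothioneins are small proteins rich in cysteine that bind zinc and copper and buffer their free levels. Iron regulates ferritin mainly at translation, through an iron-responsive element in the leader of its messages, while zinc drives metallothionein transcription through the factor MTF1. HMOX1 and both ferritin genes are also targets of NRF2, a factor of the oxidative stress response that is active in A549 cells because these carry a defective KEAP1, its inhibitor.

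The iron-responsive element ties the ferritin messages to cellular iron, so its sequence is shown for the ferritin chains and for the iron exporter gene SLC40A1 and the transferrin receptor gene TFRC. It was searched in GENCODE v29 transcripts (GRCh38) as a C, then 5 bases, then CAGTGN, then 5 bases that pair with the first 5, with G-T pairs allowed. Such a match stood in the leader of 31 of 19500 protein-coding genes (0.159%) and in the 3′ untranslated region of 128 (0.656%). Capitals mark the loop, and a match is a description of the letters alone.
FTH1: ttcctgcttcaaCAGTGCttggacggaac
FTL: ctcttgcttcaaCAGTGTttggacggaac
SLC40A1: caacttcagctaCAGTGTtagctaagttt
TFRC: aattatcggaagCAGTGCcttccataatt
TFRC: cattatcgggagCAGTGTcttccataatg
TFRC: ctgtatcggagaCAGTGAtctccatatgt
TFRC: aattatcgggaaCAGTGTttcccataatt
The FTH1, FTL and SLC40A1 elements stand in the leader, 171, 167 and 223 bases before the start codon. The 4 TFRC matches stand in the 3′ untranslated region, where binding of the iron regulatory proteins protects the message from decay. An element that departs from the searched pattern would be missed, so the 4 are no full count.

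The 4 metallothionein genes have coding sequences of 186 bases that are close copies of each other, which bears on how reads are assigned to them. The sequences are from GENCODE v29 (GRCh38), and capitals in MT1X, MT1E and MT1F mark bases unlike MT2A.
MT2A: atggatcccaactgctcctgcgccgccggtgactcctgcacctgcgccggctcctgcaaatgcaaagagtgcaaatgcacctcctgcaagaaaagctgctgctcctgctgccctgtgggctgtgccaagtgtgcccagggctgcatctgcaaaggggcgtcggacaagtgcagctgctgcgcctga
MT1X: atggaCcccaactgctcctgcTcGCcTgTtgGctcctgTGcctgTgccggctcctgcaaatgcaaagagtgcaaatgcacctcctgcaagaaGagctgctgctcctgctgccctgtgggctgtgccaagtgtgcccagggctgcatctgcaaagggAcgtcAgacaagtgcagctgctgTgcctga
MT1E: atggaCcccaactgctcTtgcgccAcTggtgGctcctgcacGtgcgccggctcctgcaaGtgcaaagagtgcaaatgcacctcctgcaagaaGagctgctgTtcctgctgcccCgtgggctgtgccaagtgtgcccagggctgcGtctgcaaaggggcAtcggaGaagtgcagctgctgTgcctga
MT1F: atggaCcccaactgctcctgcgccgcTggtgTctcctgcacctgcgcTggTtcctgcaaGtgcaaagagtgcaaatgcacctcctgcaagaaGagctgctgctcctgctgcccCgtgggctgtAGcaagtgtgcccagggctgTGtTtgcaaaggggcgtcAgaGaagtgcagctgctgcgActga
Of 62 codons in each, 20 are TGC or TGT, the codons of cysteine, the residue that binds the metal. MT1X and MT1E each differ from MT2A at 14 bases and MT1F at 16. Identity between pairs ran from 88.7% (MT1F and MT1X) to 92.5% (MT2A with MT1X or MT1E). The longest stretch without a difference was 63 bases, between MT1X and MT2A, so a short read from such a stretch cannot be told apart between the genes.

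The promoters of MT2A and MT1X are shown because MTF1 binds metal-responsive elements in them. RefSeq promoters (GRCh38.p14) were matched for 3 of the 7 genes, FTL, MT2A and MT1X, and the 250 bases before the start are given on the plus strand. The searched motifs were TGCGCNC and TGCACNC on both strands, and capitals mark them.
MT2A, chr16:56608334-56608583: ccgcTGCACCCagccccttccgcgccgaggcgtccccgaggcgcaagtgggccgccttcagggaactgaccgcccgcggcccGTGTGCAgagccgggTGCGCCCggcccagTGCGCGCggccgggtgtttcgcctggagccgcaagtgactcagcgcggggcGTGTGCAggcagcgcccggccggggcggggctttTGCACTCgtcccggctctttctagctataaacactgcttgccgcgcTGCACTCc
MT1X, chr16:56682220-56682469: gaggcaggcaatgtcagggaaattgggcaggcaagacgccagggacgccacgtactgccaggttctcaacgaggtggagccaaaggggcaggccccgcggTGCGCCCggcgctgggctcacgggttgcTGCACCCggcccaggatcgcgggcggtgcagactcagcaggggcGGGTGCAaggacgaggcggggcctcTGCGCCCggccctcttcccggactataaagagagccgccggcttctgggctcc
The MT2A stretch holds 7 such matches and the MT1X stretch 4, where 24.8% of 35116 promoters of this length hold at least 1 and 0.370% hold at least 4. The FTL stretch holds none of these letters. The core of the antioxidant-responsive element that NRF2 binds, TGACNNNGC, was found once each in MT2A and MT1X and, on either strand, in 10.9% of all promoters. An AP-1 site, TGACTCA, was found in MT2A and in 4.20% of all promoters. In MT2A both matches start at the same base.

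The rounded totals were 597133 counts in TGF-beta cells, against 674784 in untreated cells, and 1965 and 3157 genes had at least 20 counts there. Levels are given as CPM, counts over library totals scaled by TMM, a trimmed mean of log ratios, and equal counts give a log2 ratio of 0.34. A count of 0 is set to a floor of 3 counts, which is 5.31 CPM with TGF-beta and 4.21 CPM without, and a fold against the floor takes the other count as measured, so the counting interval can reach nearer to equality. Intervals are exact 95% intervals of counting alone. With 1 library per group there is no test, no p-value and no replicate check, and fewer cells of a type cannot be told apart from less RNA per cell. Of 13 epithelial and A549 markers 10 passed the filter used below, 5 were at least 2-fold lower and 2 higher, and the list summed to 2039 CPM in TGF-beta cells against 2043 CPM in untreated cells. The list's median log2 ratio was -1.03, and -2.15 at 20 CPM. Some detoxifying enzymes that A549 cells are known for were lower, with AKR1C1 at 2 counts with TGF-beta and 36 without (-3.83), ALDH1A1 at 14 and 104 (-2.56) and AKR1B10 at 0 and 22. Of the keratins, KRT7 had 32 counts with TGF-beta and 179 without, KRT8 had 16 and 53, and KRT19 had 45 and 51. EPCAM had 7 and 4 counts, and CDH1, which encodes E-cadherin, had 4 and 1. All 5 markers that were at least 2-fold lower are among those named. Markers of the list not named here, KRT18 among them, held most of its summed counts in both libraries. The genes named thus do not account for the near equal sums. Markers of other cell types were looked at as lists of 9 genes. Those of erythroid cells and hepatocytes, cells known for heme and metal storage, summed to 24.8 CPM with TGF-beta and 23.8 CPM without, with HBA1 at 0 in both libraries. Leukocyte markers summed to 54.9 CPM with TGF-beta against 101 CPM without. Fibroblast markers summed to 733 CPM with TGF-beta against 374 CPM without, most of it COL1A1. The part of these cell types in the results was not tested.

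Of the 7 genes, 5 were lower in TGF-beta cells, FTH1, FTL, HMOX1, MT2A and MT1X, by 9.21-fold to 27.4-fold. MT1E and MT1F had 5 counts or fewer in either library. Scaling on ribosomal protein genes turned the direction of FTL, to a log2 ratio of 0.31. All 7 genes passed the filter of 5 CPM in 1 library, MT1E and MT1F only through the TGF-beta library and MT1X only through the untreated library, so each passed through the library where it is high. Over all 15401 genes past that filter, 26.7% lay at least 2-fold below and 22.0% at least 2-fold above the untreated level. With DESeq2 size factors these shares were 33.8% and 17.5%. At the stricter filter of 20 CPM, 36.0% of 5341 genes were lower by this measure and 18.5% higher. The 5 lower members met it and MT1E and MT1F did not. HMOX1 and MT1X met it only through the untreated library, where they are high, so the filter fixes their direction and the count is no support. The counting interval lay wholly beyond 2-fold lower for these 5 genes and for 7.04% of all genes, and wholly beyond 2-fold higher for none of the 7 and 2.50% of all. An interval clears 2-fold more readily at high counts, and only 1969 of the 15401 genes had a summed count of at least 50. These shares are thus no background matched for depth. MT1F, and MT1E at the value its few counts give, count as 2-fold higher in the tally, each with an interval that includes equality. Together the 7 genes held 0.0367% of the counts in TGF-beta cells (0.0320% to 0.0419%, exact binomial) and 0.443% in untreated cells (0.427% to 0.459%).

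**Figure D1:**
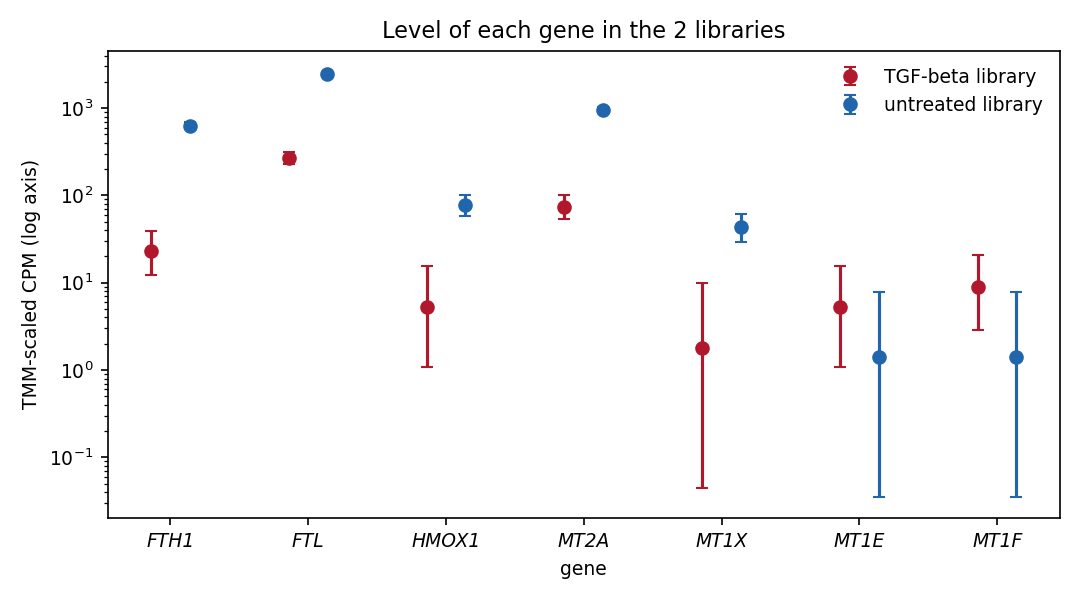
TMM-scaled CPM (log axis) of the 7 genes in the TGF-beta library (red, left) and the untreated library (blue, right), with exact 95% Poisson intervals. FTH1, FTL, HMOX1, MT2A and MT1X have intervals that do not overlap between the libraries, and those of MT1E and MT1F overlap.

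FTL, the light chain, had the most counts of the 7 genes. It had 152 counts in TGF-beta cells, against 1767 in untreated cells, or 269 and 2478 CPM. The log2 ratio was -3.20 (-3.45 to -2.96), or 9.21-fold lower. FTH1, the heavy chain, had 13 counts in TGF-beta cells, against 449 in untreated cells, at 23.0 and 630 CPM. Its log2 ratio was -4.77 (-5.69 to -3.99), or 27.4-fold lower, and it ranked 81 from the lowest of 15401 genes, while FTL ranked 672. Summed, the ferritin genes had 292 CPM in TGF-beta cells against 3108 CPM in untreated cells, a log2 ratio of -3.41 (-3.65 to -3.18).

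The heavy chain made up a smaller share of the ferritin counts in TGF-beta cells. FTH1 held 7.88% of the FTH1 and FTL counts in TGF-beta cells (4.26% to 13.1%) and 20.3% in untreated cells (18.6% to 22.0%). These intervals do not overlap, and the share does not depend on the scaling of the libraries. Since genes are read through separate amplicons, the share is no ratio of molecules, and its difference between the libraries alone is read.

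The FTH1 value rests on reads that other entries of the table also hold. FTH1 lies at hg19 chromosome 11, 61727190 to 61735132, minus strand, and BEST1, a chloride channel gene of the retinal pigment epithelium, overlaps it on the plus strand. BEST1 had 12.1 expected counts in TGF-beta cells, against 322 in untreated cells. Of its exon values, 91.6% and 97.1% in these libraries lay in an exon (61729727 to 61732987) that runs over the FTH1 exon at 61732841. The strand setting of the counting is not given, so reads of these genes cannot be told apart. FTH1 and BEST1 added together, a sum chosen after the data had been seen, gave a log2 ratio of -4.61.

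FTH1 also has many processed pseudogenes, copies of its message inserted elsewhere in the genome. The 25 FTH1 pseudogene entries held 9.17 expected counts in TGF-beta cells and 37.5 in untreated cells. That is 41.0% and 7.71% of the counts of FTH1 and its pseudogenes. With the pseudogenes added, the FTH1 log2 ratio was -4.13, and its share of ferritin counts was 12.5% in TGF-beta cells and 21.5% in untreated cells. The 16 FTL pseudogene entries held 2 expected counts in TGF-beta cells and 14.2 in untreated cells, or 1.30% and 0.797% of the family, and FTL stayed at -3.20. The assignment of reads to pseudogenes thus moved the FTH1 value and not that of FTL.

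FTL lies at hg19 chromosome 19, 49468558 to 49470135, plus strand, and its counts lay in the same place in both libraries. The exon at 49469027 to 49469173 held 88.2% of its exon values in TGF-beta cells and 89.6% in untreated cells, and the first exon held the rest. In FTH1 the exon at 61732841 held 71.6% in TGF-beta cells and 83.5% in untreated cells, and the exon at 61734784 the rest. The other 2 of the 4 exon regions held none in either gene. The FTH1 exon values in untreated cells, 649 and 128, add to more than the gene's 449 expected counts, so exon values are used as shares alone.

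**Figure D2:**
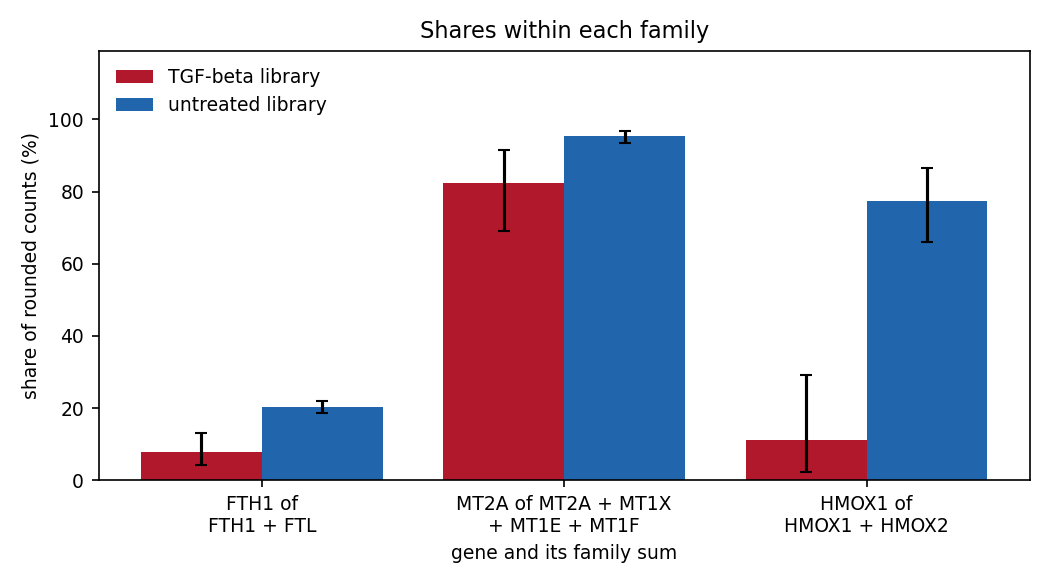
Share of rounded counts (percent) that FTH1 held of FTH1 plus FTL, MT2A of the 4 metallothionein genes, and HMOX1 of HMOX1 plus HMOX2, in the TGF-beta library (red, left) and the untreated library (blue, right), with exact 95% binomial intervals. The HMOX1 share differed most, at 11.1% in TGF-beta cells and 77.5% in untreated cells.

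HMOX1, the inducible heme oxygenase, was low in TGF-beta cells while HMOX2, the constitutive form, was not lower. HMOX1 had 3 counts in TGF-beta cells, against 55 in untreated cells, at 5.31 and 77.1 CPM, with a log2 ratio of -3.86 (-6.18 to -2.24). HMOX2 had 24 counts in TGF-beta cells, against 16 in untreated cells, with a log2 ratio of 0.92 (-0.05 to 1.93), which includes 0. The HMOX2 counts lay in different stretches of hg19 chromosome 16, with 52.6% of exon values at 4525925 to 4526488 in TGF-beta cells and 69.0% at 4559413 to 4559780 in untreated cells, and the share of HMOX1 rests on both genes. HMOX1 made up 11.1% of the summed heme oxygenase counts in TGF-beta cells (2.35% to 29.2%) and 77.5% in untreated cells (66.0% to 86.5%). HMOX1 lies at hg19 chromosome 22, 35776354 to 35790207, plus strand. In the untreated library 87.4% of its exon values lay at 35782678 to 35783169, and this stretch held 5.73% of the exon values of the TGF-beta library, whose 3 counts were spread over 4 stretches.

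MT2A, the most widely expressed metallothionein of human tissues, had most metallothionein counts in both libraries and was lower in TGF-beta cells. It had 42 counts in TGF-beta cells, against 682 in untreated cells, at 74.3 and 956 CPM, and a log2 ratio of -3.69 (-4.17 to -3.24), or 12.9-fold lower. MT1X had 1 count in TGF-beta cells and 31 in untreated cells, with a log2 ratio of -4.62 (-9.97 to -2.03). With its pseudogene MT1XP1 added the MT1X value was -3.75. The other member genes were at a few counts, where a difference was not detectable at this depth. MT1F had 5 counts in TGF-beta cells, against 1 in untreated cells (4.83 and 0.5 expected), with a log2 ratio of 2.66 (-0.50 to 8.22), an interval that includes 0. MT1E had 3 counts in TGF-beta cells, against 1 in untreated cells, both within the floor, so no ratio is given.

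The 4 metallothionein genes summed to 51 counts in TGF-beta cells, against 715 in untreated cells, a log2 ratio of -3.47 (-3.91 to -3.06). MT2A held 82.4% of them in TGF-beta cells (69.1% to 91.6%) and 95.4% in untreated cells (93.6% to 96.8%). The MT2A exon entry at hg19 chromosome 16, 56642496 to 56642969, held 76.8% of its exon values in TGF-beta cells and 98.1% in untreated cells. Exon entries of other MT2A transcripts overlap this stretch, so these shares follow how values were split among the transcripts and do not place the reads. The transcript entry that starts with this stretch, ENST00000563985, held 76.7% of MT2A in TGF-beta cells and 98.2% in untreated cells by the deposited transcript shares.

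All 4 genes lie on the plus strand of the metallothionein cluster on hg19 chromosome 16, MT2A at 56642111 to 56643409, MT1E at 56659387 to 56661024, MT1F at 56691606 to 56694610 and MT1X at 56716336 to 56718108. They lie within 74.2 kb from the start of MT2A to that of MT1X. Apart from MT1E and MT1F, the genes between them had 0 to 2 counts. MT1A and MT1M had 0 counts in both libraries, MT1G had 1 in each, and MT1B and MT1H had 0 in TGF-beta cells and 1 in untreated cells. MT1L had 0 and 2. MT3, the form best known from brain, had 2 counts in TGF-beta cells, against 8 in untreated cells, with a log2 ratio of -1.66 (-4.94 to 0.66). The exact 95% interval of a count of 0 reaches up to 6.53 CPM with TGF-beta and 5.17 CPM without. The pseudogene MT1P1, taken by its name and without regard to its position, held 7.76 expected counts in TGF-beta cells and 13.0 in untreated cells.

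**Figure D3:**
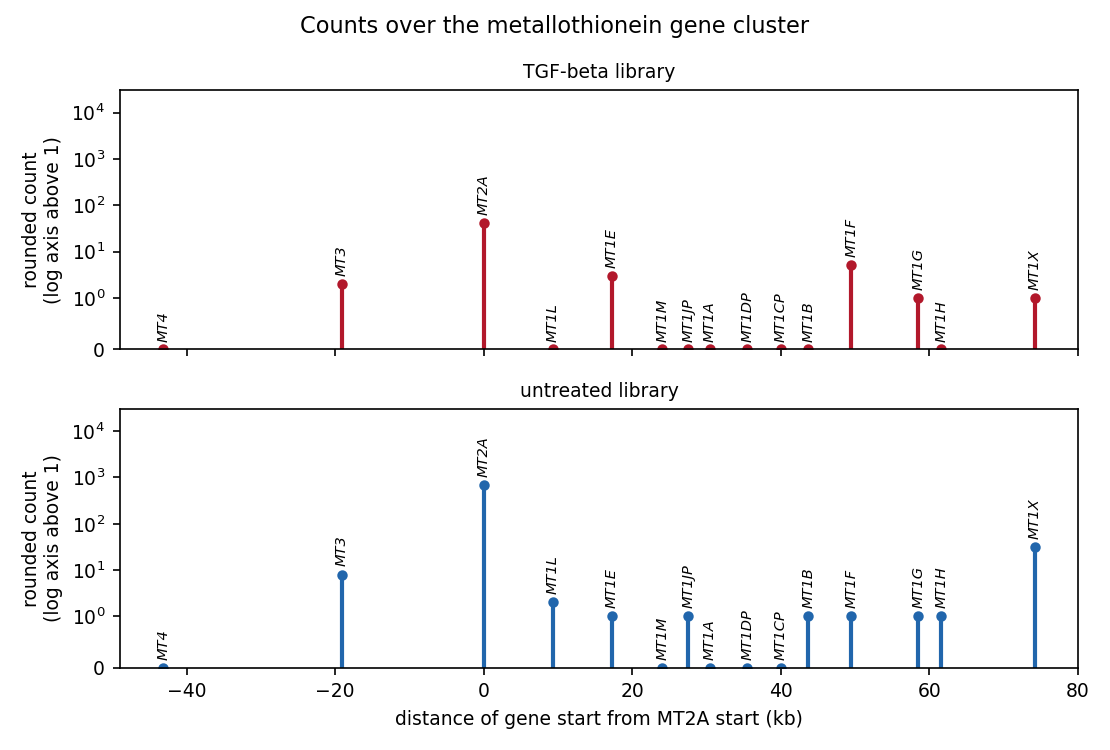
Rounded counts (log axis above 1) of the genes of the metallothionein cluster against the distance of their start from that of MT2A (kb), in the TGF-beta library (top) and the untreated library (bottom). MT2A (42 and 682 counts) and MT1X (1 and 31) carry the difference, and most genes between them had 0 to 2 counts.

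The ratios of the 5 lower genes lay outside the middle range of all genes. Over all 15401 genes the median log2 ratio was 0.01 with quartiles of -1.12 and 0.92. Among the 1969 genes with a summed count of at least 50, which FTH1, FTL, HMOX1 and MT2A reached, 30.8% were lower by the 2-fold rule and 14.4% at least 8-fold lower, and all 4 of these genes were at least 8-fold lower. Among the 196 genes with a summed count of at least 500, 11.7% were at least 8-fold lower, FTL and MT2A among them. This background by summed count was chosen after the data had been seen. FTH1, HMOX1 and MT2A reached 50, and FTL and MT2A reached 500, only with the untreated library, where they are high. The filter thus favours a lower ratio for these genes, and their counts are no support.

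**Figure D4:**
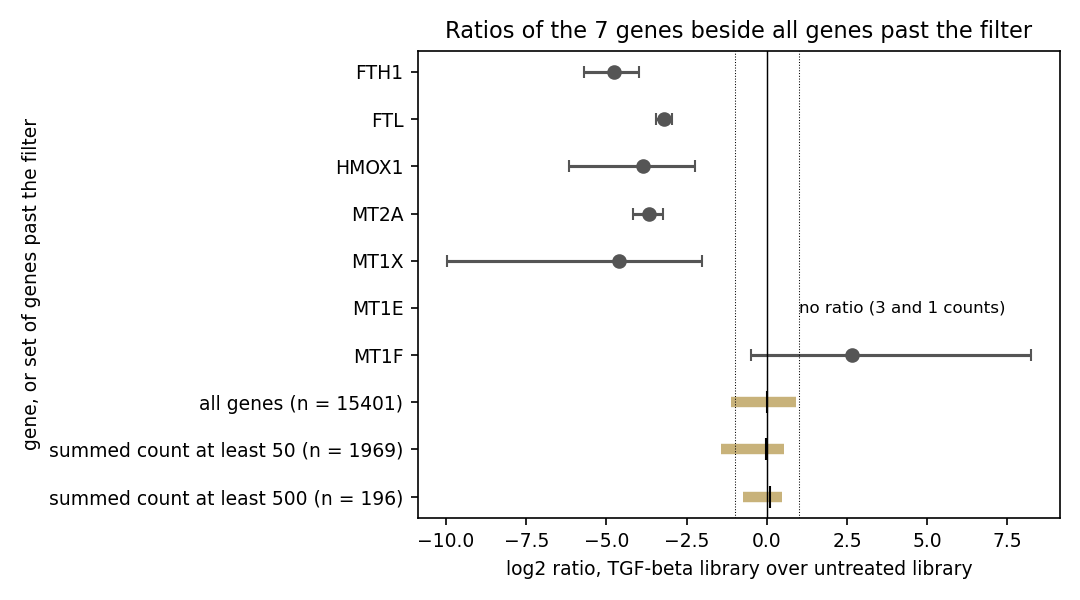
Log2 ratio (TGF-beta cells over untreated cells) for the 7 genes, with exact 95% counting intervals, above the median (tick) and quartiles (bar) of all 15401 genes past the filter, of the 1969 with a summed count of at least 50 and of the 196 with at least 500. Dotted lines mark 2-fold, the 5 lower genes lie left of both, and MT1E has no ratio.

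Of the genes that handle iron around ferritin, the transferrin receptor was low together with the ferritin chains. TFRC, which brings iron into the cell, had 0 counts in TGF-beta cells, against 64 in untreated cells. Against the floor it was at least 16.9-fold lower, and the upper end of its counting interval was -3.74 on the log2 scale. STEAP3, which reduces iron in endosomes, had 2 counts against 25 in untreated cells (-3.31, -6.43 to -1.30), and PCBP1, a chaperone that delivers iron to ferritin, had 22 against 73 (-1.39, -2.15 to -0.69). NCOA4, the receptor that carries ferritin to lysosomes for breakdown, was higher, with 52 counts in TGF-beta cells, against 1 in untreated cells (6.04, 3.49 to 11.37). Of its exon values in TGF-beta cells, 99.99% lay in the exon at hg19 chromosome 10, 51565205 to 51565296, while 99.1% of those of the single untreated count lay in the exon at 51584616 to 51584947. Of the 26 genes of iron uptake, storage and export, 19 passed the filter, 8 were at least 2-fold lower and 4 higher, and the median log2 ratio was 0.01. That median was -0.88 with DESeq2 size factors and -1.39 at 20 CPM.

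The iron sensors and the exporter were sparse. IREB2, an iron regulatory protein, had 19 counts in TGF-beta cells, against 38 in untreated cells (-0.66, -1.54 to 0.17). ACO1, the other such protein, had 3 and 2 counts, both within the floor. SLC40A1, the iron exporter ferroportin, had 1 and 7 counts (-2.47, -7.97 to 0.49), and the importer gene SLC11A2 had 2 and 6. The mitochondrial ferritin gene FTMT had 2 and 8 (-1.66, -4.94 to 0.66). CISD1, an iron-sulfur protein of the outer mitochondrial membrane, was higher, with 84 counts in TGF-beta cells against 31 (1.77, 1.16 to 2.42). Its exon at hg19 chromosome 10, 60028818 to 60029064, held 100% of its exon values in TGF-beta cells and 54.8% in untreated cells. Of the 16 genes of iron sensing and mitochondrial iron, 13 passed, 1 was at least 2-fold lower and 2 higher, at a median of -0.15.

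Heme genes lay on both sides of the 2-fold rule. BLVRB, which reduces biliverdin and flavins, had 1 count in TGF-beta cells and 35 in untreated cells (-4.79, -10.14 to -2.22), while BLVRA, the other biliverdin reductase, had 7 in each. PGRMC1, a heme-binding membrane protein, had 0 counts against 98 and was at least 25.9-fold lower against the floor, with an upper interval end of -4.37 on the log2 scale. FECH, which inserts iron into the heme ring, had 30 counts in TGF-beta cells, against 51 in untreated cells (-0.43, -1.13 to 0.25), and ALAS1, the first enzyme of heme synthesis, had 7 and 3. Of 20 genes in the list, 14 passed, 5 were at least 2-fold lower and 2 higher, and the median was -0.04, or -0.63 with DESeq2 size factors.

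Zinc genes had a median near that of all genes. MTF1, the zinc sensor, had 3 counts in TGF-beta cells, against 0 in untreated cells, within the floor. SLC30A1, a zinc exporter gene that MTF1 drives, had 8 and 10 counts (0.01, -1.53 to 1.51). Of 24 zinc genes 16 passed, 3 were at least 2-fold lower and 4 higher, and the median log2 ratio was 0.28, which was -0.38 at 20 CPM. SLC39A1, a zinc importer, had 4 counts against 24 (-2.25, -4.24 to -0.71).

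Copper genes had a lower median. Of 19 genes 15 passed, 11 were at least 2-fold lower and 2 higher, with a median of -1.78 that turned to 1.73 with scaling on ribosomal protein genes. Over all genes past the filter, 26.7% were lower by this rule and 22.0% higher. Most of the lower copper genes passed only through the untreated library, where they are high, so the filter fixes their direction and the count is no support. The same holds for genes of the other lists that passed through 1 library only. SOD1, the copper and zinc superoxide dismutase, had 21 counts in TGF-beta cells, against 82 in untreated cells (-1.63, -2.40 to -0.92). COX17, which brings copper to cytochrome c oxidase, had 0 against 36 and was at least 9.51-fold lower against the floor, with an upper interval end of -2.88. The copper importer gene SLC31A1 had 0 against 13 and was at least 3.43-fold lower against the floor, with an upper interval end of -1.27. ATP7A, a copper export pump, had 1 and 6 counts, and the copper chaperone gene ATOX1 had 2 and 10, with intervals that include 0.

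Regulators of HMOX1 and ferritin transcription were sparse, with 171 counts or fewer over the list in either library. NFE2L2, which encodes NRF2, had 2 counts in TGF-beta cells, against 8 in untreated cells (-1.66, -4.94 to 0.66). BACH1, the heme-sensing repressor of HMOX1, had 26 and 20 (0.71, -0.18 to 1.63), and KEAP1 had 5 and 4. MAFK, a small partner of both factors, had 3 counts against 39 (-3.36, -5.70 to -1.71). SQSTM1, an autophagy receptor that binds KEAP1, had 27 against 74 (-1.12, -1.81 to -0.47). Of 11 genes in the list all passed, 5 were at least 2-fold lower and 2 higher, at a median of -0.99.

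Other NRF2 targets, of glutathione, thioredoxin and NADPH metabolism, were divided. Of 24 genes 21 passed, 10 were at least 2-fold lower and 1 higher, and the median log2 ratio was -0.83, or -2.73 at 20 CPM. NQO1, a quinone reductase, had 5 counts in TGF-beta cells, against 71 in untreated cells (-3.49, -5.16 to -2.20), and TXN, thioredoxin, had 4 against 47 (-3.22, -5.15 to -1.77). GCLM, a subunit of the enzyme that begins glutathione synthesis, had 1765 counts against 1404 (0.67, 0.56 to 0.77).

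Lists outside metal handling held ratios of a like size. Cytosolic ribosomal protein genes had a median log2 ratio of -3.16, with 64 of 76 at least 2-fold lower and 3 higher, and their summed counts gave -3.51 (-3.59 to -3.44). Glycolytic enzyme genes had a median of -2.66, with 13 of 17 lower and 1 higher, and GAPDH had 115 counts in TGF-beta cells against 2764 in untreated cells (-4.25, -4.53 to -3.98). When the libraries were scaled on the ribosomal protein genes, FTH1 was at -1.26, MT1X at -1.11, HMOX1 at -0.35, MT2A at -0.17 and FTL at 0.31, and the ribosomal protein and glycolytic medians turned to 0.48 and 0.85. Whether the members share a cause with these lists was not tested.

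**Figure D5:**
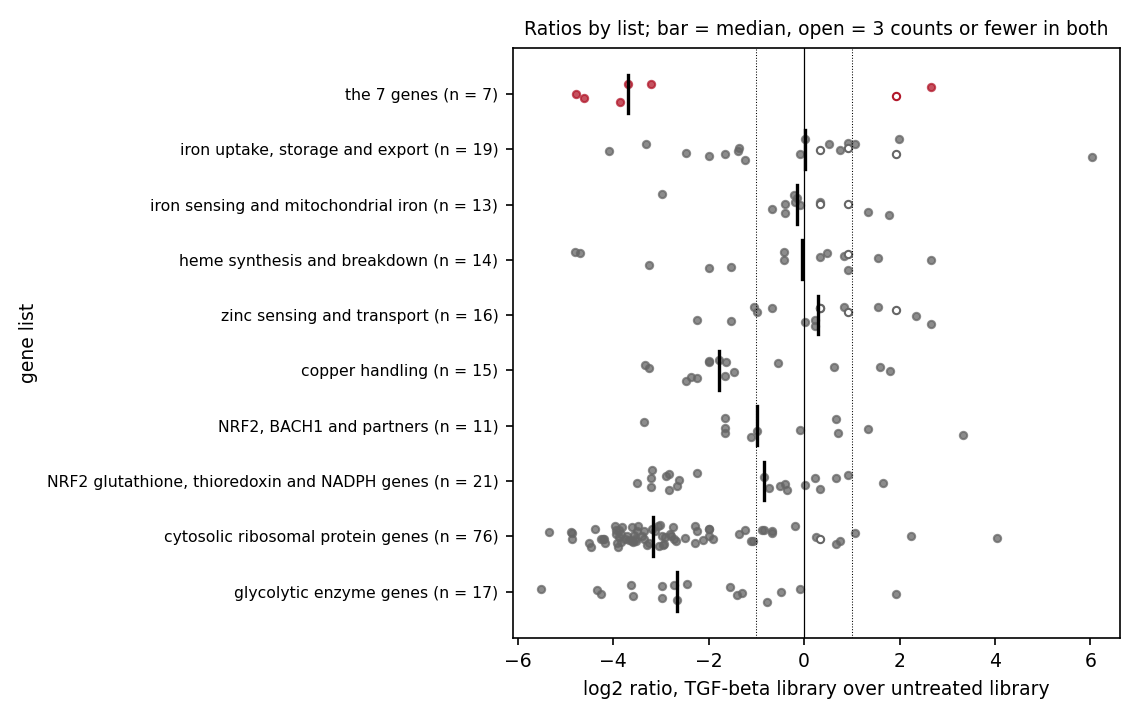
Log2 ratio (TGF-beta cells over untreated cells) for the 7 genes (red) and for the lists (grey), genes past the filter, with the median as a bar. The lists of cell type markers and of the other metallothioneins are not drawn. Open points mark genes at or under the floor of 3 counts in both, which enter the medians at the value the floor gives, and the ribosomal protein (-3.16) and glycolytic (-2.66) medians are the lowest of the grey lists.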

How the data were processed

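The authors deposited expected counts per gene, which need not be whole and carry no normalization in the file, beside transcript shares within a gene and exon values. The build is hg19, and the submitters' processing notes name DESeq without a role. Nothing in the sources used here names the aligner, the counter or the strand setting. Gene entries were rounded to whole numbers. TMM factors, from edgeR 4.0.16 (R 4.3.3), were 0.946 for the TGF-beta library and 1.06 for the untreated library. Genes with at least 5 CPM in 1 library were compared, without a pseudocount. For a ratio, the Clopper-Pearson interval of the TGF-beta share of the summed count was taken (scipy 1.17.1). It covers counting error only, since without molecular identifiers PCR copies are counted as if independent. The script was tested on simulated data.

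The members and lists were chosen with earlier results of these data known. Named genes are the members, a panel of 27 genes set by role, of which those under 5 CPM may be given as a count, and up to 3 genes per list with the largest ratios at 20 CPM, of which the text gives those that describe a group. The genes of the metallothionein cluster, BEST1, the keratins, EPCAM, CDH1, HBA1, GCLM, ATP7B and SOD3 were named outside this rule. Their values had then been seen. All listed symbols of the 14 lists were found. Alternatives were other scalings, filters, floors, a pseudocount of 1, no rounding, and pseudogenes added.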

Additional observations from a re-analysis of the deposited data

How the results depend on the processing

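The log2 ratios of FTH1, FTL, HMOX1, MT2A and MT1X kept their sign and stayed beyond 2-fold under every setting but scaling on ribosomal protein genes. They ran from -4.99 to -4.13 for FTH1, -3.42 to -3.12 for FTL, -4.08 to -3.63 for HMOX1, -3.90 to -3.61 for MT2A and -4.84 to -3.75 for MT1X. DESeq2 size factors shifted all ratios by -0.22, total counts by -0.16, the upper quartile by 0.08 and ribosomal protein scaling by 3.51. Under the last, FTL turned to 0.31, the median of the 7 genes was -0.17 (-3.69 with TMM), 2 of them were at least 2-fold lower, 0.529% of all genes were lower and 94.3% higher, and 0 lists had a median below 0. All 10 list medians below 0 with TMM turned, to 2.85 for the other metallothioneins, 1.73 for copper, 0.48 for ribosomal protein, 0.85 for glycolytic, 2.56 for epithelial, 3.32 for iron sensing, 3.26 for heme, 2.53 for NRF2 and BACH1, 2.47 for NRF2 glutathione and 2.53 for leukocyte genes. This follows from the shift and in part from the filter, since this scaling also changes which genes reach 5 CPM. The other metallothioneins, 1 gene past the main filter, had 0.92 at 1 CPM and with no filter, as more genes at the floor enter. The 2 members counted as at least 2-fold higher, MT1E and MT1F, became 1 with DESeq2 size factors and 1 without rounding, and 0 at 20 CPM. No paired analysis was possible because each group has 1 library, and leaving out a library leaves no comparison. Depth limits MT1E and MT1F and most genes of the lists to large differences.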
